A study of Homo sapiens with 6 samples.

Results

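The 39 genes described here encode secreted chemokines, interleukins, colony-stimulating factors, ligands of the TNF family and MIF, the signals by which cells call in and instruct immune cells. They were chosen by symbol as a family, and all 39 had a row among the 22354 loci counted. RNA-seq counts came from 6 libraries of HTori-3.1, an immortalised line of human thyroid follicular epithelial cells. In the 3 libraries labelled control (control-labelled) the genotype was wild type, and in the 3 labelled BMAL1 knockout (knockout-labelled) the cells are titled as given an sgRNA against BMAL1, a transcription factor of the circadian clock. The protocol describes Cas9 delivery, after which puromycin-resistant single clones were picked. It is the same text for all 6 libraries and also names an siRNA against BMAL1, without stating which libraries received it. How many clones the libraries stand for was not given in the sources used here. All 6 cultures were exposed to etoposide, a topoisomerase II poison that breaks DNA and induces senescence, at 2 μM, for 12 h by the sample labels and for 24 h by the protocol. No library without etoposide was analysed here, so the values show how the groups differ under the drug and not what the drug does. The control-labelled libraries held 26893063, 27029060 and 28513703 counts, and the knockout-labelled libraries 43148059, 29860233 and 43563391.

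Chemokines are small proteins that draw leukocytes along a gradient. CXC chemokines with a Glu-Leu-Arg (ELR) motif attract mainly neutrophils, CXCL10 and CXCL11 attract activated T cells through CXCR3, and the CC chemokines attract monocytes, T cells and dendritic cells. Interleukins and TNF ligands act on receptors of nearby cells, and IL6, IL11, LIF and CLCF1 all signal through the shared receptor chain gp130. Many of these genes are switched on by NF-κB and AP-1, and senescent cells are known to secrete CXCL8, IL6 and other members of the family as part of the senescence-associated secretory phenotype. The comparison asked whether expression of these genes differed between etoposide-treated cells with and without the BMAL1 edit.

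The targeted gene was read first as a check of the labels. BMAL1 (ENSG00000133794.20; chromosome 11 of hg38, 13276652 to 13387266, forward strand) was measured at 11.3, 12.2 and 14.6 CPM in the control-labelled libraries, and at 17.9, 19.8 and 19.4 CPM in the knockout-labelled ones, where CPM is the count on a gene scaled by TMM to a common library total. Each of the 3 knockout-labelled libraries exceeded each of the controls, against the label, with a log2 fold change of 0.58 (SE 0.113; edgeR adjusted p = 0.0204, Benjamini-Hochberg over 14860 loci). Leaving out 1 library at a time, the edgeR adjusted p of BMAL1 ranged from 0.0168 to 0.113 and was under 0.05 in 2 of 6 fits. A Cas9 edit can remove the protein and leave the transcript, so these reads do not test the protein. The protocol names a western blot as the check of the knockout, which was not analysed here. NR1D1 and NR1D2, genes that BMAL1 with CLOCK activates, were named here after their values were seen. They were lower, with log2 fold changes of -1.25 and -0.78 (edgeR adjusted p = 0.00146 and 0.00233). NR1D1 overlaps THRA on the opposite strand. Picked from these same values, NR1D1 and NR1D2 cannot check the labels, and other clock genes are not reported here. Groups are called by their labels, and every direction is knockout-labelled over control-labelled.

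Of the thyroid markers, the transcription factors PAX8 and FOXE1 were expressed in every library, with estimates below 0 that did not pass the test (log2 fold changes -0.28 and -0.26, edgeR adjusted p = 0.259 and 0.139) and groups separate for FOXE1 but not PAX8, whereas NKX2-1 had 0 counts in all 6 and TG and TSHR had at most 13 counts in any library. The keratin genes KRT7, KRT8 and KRT18 were abundant. KRT18 was lower, at 842, 860 and 853 CPM against 651, 564 and 591 CPM (log2 fold change -0.50, edgeR adjusted p = 0.00583), and KRT8, which shares exon positions with it, had an estimate of -0.28 (edgeR adjusted p = 0.0507). KRT7, KRT19 and EPCAM had estimates above 0 (0.10, 0.23 and 1.57, the last on few reads), none past the test. CDH1, also on the list of epithelial markers, had only 5 to 14 counts in each library and was not kept by the filter on low counts. Because cytokines are also made by leukocytes, 13 immune markers were read as well. CD3E, CD2, MS4A1, FCGR3A and AIF1 had 0 counts in all 6 libraries. The summed level of the 13 markers was 19.3, 20 and 18.1 CPM in the control-labelled libraries, and 14.3, 12.6 and 13.4 CPM in the knockout-labelled ones, of which CD68, a lysosomal protein gene also expressed outside macrophages, made up 67.8%. Of the 3 immune markers kept by the filter on low counts, 1 passed the test, beside 2.51% of all loci. A single call in so short a list is no result about the list. PTPRC, the gene called, encodes CD45. It was measured at 6.41, 6.24 and 6.53 CPM in the control-labelled libraries and at 2.51, 1.97 and 2.60 CPM in the knockout-labelled ones. Its log2 fold change was -1.43 (edgeR adjusted p = 0.00127). CD68 was lower in estimate (log2 fold change -0.27, edgeR adjusted p = 0.296). CD14 went the other way in estimate, with 7, 9 and 18 counts in the control-labelled libraries and 16, 32 and 48 in the knockout-labelled ones (log2 fold change 0.99, edgeR adjusted p = 0.318). CSF1R, not kept, had reads in the knockout-labelled libraries only, at most 9 counts. The immune sum and PTPRC, which is part of it, moved in the same direction as CCL5, described next, but CD14 and CSF1R did not. The sum averaged 19.1 and 13.5 CPM in the control-labelled and knockout-labelled libraries, PTPRC 6.4 and 2.36 CPM, and CD68 12.1 and 10 CPM. The part of these markers in the value of CCL5 was not tested. In bulk RNA, fewer expressing cells and less RNA per cell cannot be told apart.

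Of the 39 genes, 26 passed edgeR's filter on low counts, 20 of them with a mean of at least 1 CPM. The other 13 were at or close to 0. CXCL6, CCL28 and IL33 had 0 counts in all 6 libraries, and a count of 0 allows up to 3 counts, or 0.0677 to 0.112 CPM depending on the library. CXCL5 had 4 counts in 1 library and CX3CL1 had 2 counts in 1 library. CXCL12, which attracts CXCR4-bearing cells, had 7, 6 and 10 counts in 3 libraries and 0 in the others. IL1A and IL1B, the interleukin-1 cytokines that usually head the secretory programme of senescent cells, had 3 to 16 and 3 to 9 counts in each library. IL1RN, the antagonist of their receptor, had 3 and 2 counts in 2 libraries. IL24 and CSF3 did not exceed 6 counts, TNFSF10 (TRAIL) did not exceed 6 and TNFSF15 did not exceed 5. No difference between groups was detectable in these 13 genes at this depth, and no fold change is given for them. Counting intervals and floors cover counting error only.

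Divided by exon length, which allows genes to be compared, MIF was the most abundant of the 39 genes, at 233 to 272 CPM per kilobase over the 6 libraries. MIF encodes a cytokine that most cell types hold ready-made, and its gene shares exon positions with an antisense transcript. TNFSF9, the ligand of the T cell costimulator 4-1BB, followed at 41.3 to 53.1 CPM per kilobase, and CCL5, which attracts T cells and monocytes, at 25.2 to 39.5. These 3 ranges did not overlap. IL18 at 15.5 to 21.3 and LIF at 16.6 to 20.3 CPM per kilobase could not be ordered. CLCF1 lay just under them at 12.9 to 15.6 CPM per kilobase, and its range touched that of IL18. IL32 at 6.59 to 8.42 and CSF1 at 6.11 to 8.09 CPM per kilobase came next. The classical secretory genes followed and overlapped both and each other, with IL11 at 4.61 to 7.86, CXCL8 at 4.99 to 6.84 and IL6 at 5.07 to 6.63 CPM per kilobase. TNF, at 0 to 0.311 CPM per kilobase, was more than an order of magnitude under these. The exon length is that of all annotated exons merged, so a gene whose cells use a short transcript is placed too low.

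**Figure D1:**
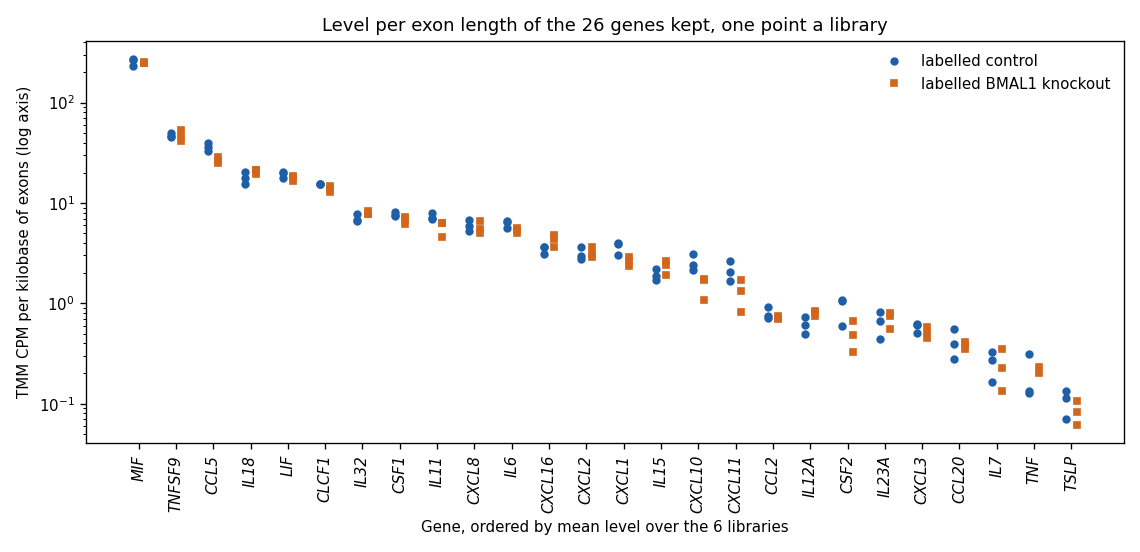
Level of the 26 genes kept, in TMM CPM per kilobase of merged exons (log axis), 1 point a library, with genes ordered by their mean over the 6 libraries. MIF lies highest at 233 to 272 CPM per kilobase, and TSLP lowest. TNF had 0 counts in knockout replicate 1, which a log axis cannot show.

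Across the table, edgeR called 373 of 14860 loci (2.51%) at an adjusted p under 0.05, 161 higher (1.08%) and 212 lower (1.43%). Scaled on library size alone, these were 185 higher and 155 lower. Leaving out 1 library at a time gave 46 to 293 higher and 67 to 340 lower. Of the 26 cytokine genes kept, 0 were called higher and 1, CCL5, was called lower. A single call among 26 genes is close to the share over all loci and is no result about the family. DESeq2 and limma-voom also called 0 higher. At an unadjusted edgeR p under 0.05, 1 gene was higher (CXCL16) and 7 were lower (CCL5, CXCL1, CXCL10, CXCL11, IL6, IL11 and CSF2), which is 30.8% of the 26, beside 16.9% of all loci. The 7 lower genes made up 26.9%, beside 7.78% of all loci. With a fold change of more than 2 and a p under 0.01 before adjustment both required, 0 of the 26 passed, beside 0.956% of all loci. For 9 of the 26 genes the groups had no level in common, 7 lower and 2 higher, or 34.6%, beside 23.3% of all loci. The estimates were below 0 for 19 genes and above 0 for 7, beside 7098 below and 7762 above over all loci. Those of TNFSF9 and MIF turned to 0 or above when scaled on library size alone. The median log2 fold change of the 26 genes was -0.13, beside 0.01 over all loci. With a library left out, this median lay between -0.21 (without control replicate 2) and -0.07 (without control replicate 1). No single library reversed it.

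**Figure D2:**
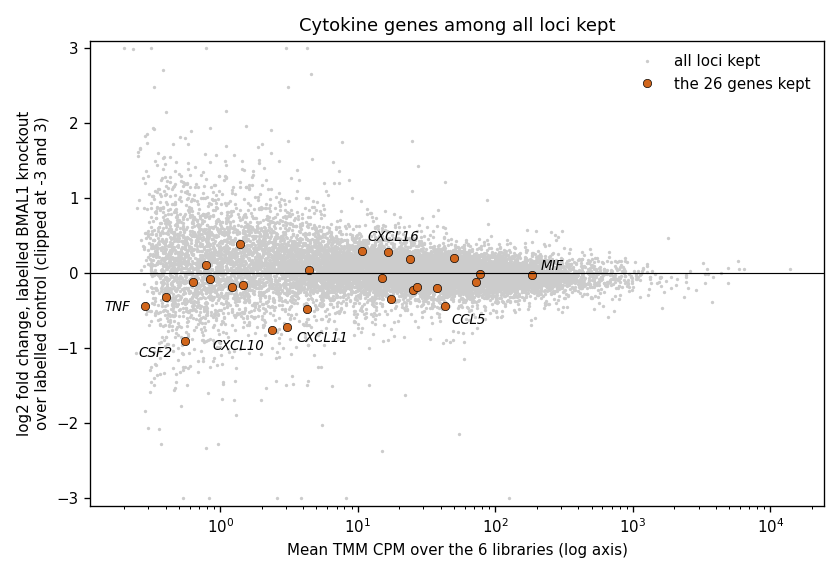
log2 fold change (labelled BMAL1 knockout over labelled control, clipped at -3 and 3) against mean TMM CPM over the 6 libraries (log axis) for all 14860 loci kept (grey) and the 26 cytokine genes kept (orange). CXCL10, CXCL11 and CSF2 lie lowest among the orange points, inside the spread of grey loci of like abundance.

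Among the CC chemokines, CCL5 was the only one abundant and the only one of the 39 genes to pass the test. CCL5 (ENSG00000271503.7; chromosome 17 of hg38, 35871491 to 35880793, reverse strand) was measured at 53.9, 49.5 and 44.6 CPM in the control-labelled libraries, and at 35.8, 39.5 and 34.4 CPM in the knockout-labelled ones. Every knockout-labelled library lay below every control-labelled one, by a gap narrower than the range of the controls. The means were 49.3 ± 4.65 and 36.6 ± 2.62 CPM (SD, n = 3 each; two-sided exact permutation test, p = 0.1, the smallest that 3 against 3 allows). The log2 fold change was -0.43 (SE 0.0953, 95% interval -0.64 to -0.22; edgeR adjusted p = 0.0370). The call was narrow, since without 1 library or another the edgeR adjusted p ranged from 0.0345 to 0.153 and was under 0.05 only without knockout replicate 1, while the log2 fold change kept between -0.50 and -0.36. The call was also lost on scaling by library size alone (adjusted p = 0.0557), with limma-voom (0.0527) and with a replicate block in edgeR (0.0546). Over all 14 alternatives the adjusted p ranged from 0.00233 (DESeq2) to 0.153. The 10 loci on each side of CCL5 had a median log2 fold change of 0.03. CCL2, the main attractant of monocytes, was at 1.79, 1.38 and 1.46 CPM in the control-labelled libraries and 1.36, 1.38 and 1.44 CPM in the knockout-labelled ones, and the groups overlapped. CCL20, the ligand of CCR6, averaged 0.633 CPM with a log2 fold change of -0.11, which turned positive without control replicate 3.

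The ELR chemokines lie together on chromosome 4, and some of their promoters are alike. RefSeq's promoter table (GRCh38.p14, 250 bases before to 50 after each start) had an entry for 28 of the 39 genes. It had none for CXCL16, CX3CL1, CCL2, CCL5, IL18, LIF, CLCF1, IL7, IL15, CSF1 and CSF3. The 100 bases shown for each gene run from 150 to 51 bases before the start, with matches to the NF-κB motif (GGG, a purine, any 2 bases, 2 pyrimidines and CC, on either strand) in capitals. Those of CXCL1 (chr4:73869243-73869342, forward strand), CXCL2 (chr4:74099246-74099345, reverse strand) and CXCL3 (chr4:74038740-74038839, reverse strand) are close copies of each other, and CXCL5 (chr4:73998728-73998827, reverse strand) and CXCL6 (chr4:73836528-73836627, forward strand) form a second pair.
CXCL1: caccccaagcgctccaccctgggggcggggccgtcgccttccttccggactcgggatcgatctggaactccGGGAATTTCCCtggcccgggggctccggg
CXCL2: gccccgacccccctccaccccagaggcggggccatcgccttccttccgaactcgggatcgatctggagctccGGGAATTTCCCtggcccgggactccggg
CXCL3: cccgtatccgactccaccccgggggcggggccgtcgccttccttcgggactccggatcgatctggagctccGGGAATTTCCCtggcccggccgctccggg
CXCL5: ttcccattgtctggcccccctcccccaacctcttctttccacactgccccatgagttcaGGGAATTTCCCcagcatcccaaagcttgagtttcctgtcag
CXCL6: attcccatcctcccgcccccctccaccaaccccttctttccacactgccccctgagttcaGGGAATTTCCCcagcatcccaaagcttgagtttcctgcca
In each of the 5, matches on both strands overlap in the same 11 letters, yet CXCL1, CXCL2 and CXCL3 were expressed and CXCL5 and CXCL6 had almost no reads. An NF-κB match was present in 13 of the 28 genes (46.4%), beside 13.3% of 27305 gene symbols. The E-box CACGTG, the motif bound by BMAL1 with CLOCK, was in 0 of the 28, beside 8.77% of symbols. A symbol with several starts counted if any of them held the motif. A match is a description of letters, not of binding, and no match says only that the letters are not in the window.

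Of the ELR chemokines kept, CXCL1 (chromosome 4, 73869393 to 73871308) stood at 4.10, 5.31 and 5.46 CPM in the control-labelled libraries, and at 3.19, 3.57 and 3.93 CPM in the knockout-labelled ones. The groups did not overlap, but the gap between them was narrow. Its log2 fold change was -0.48 (SE 0.169; edgeR unadjusted p = 0.0153 and adjusted p = 0.172), which did not pass the test. CXCL2 did not follow its neighbour, at 5.07, 4.15 and 3.86 against 4.03, 4.29 and 5.08 CPM, with groups fully interleaved. CXCL3 was at 1.34, 1.12 and 1.39 against 1.01, 1.28 and 1.13 CPM, again with overlap. The coding sequences of these 3 genes are much alike, and counting of uniquely mapped reads can lose or misplace reads among them, so their separate values are uncertain. CXCL8, the neutrophil attractant best known from senescent cells, was at 15.2, 13.5 and 17.7 CPM in the control-labelled libraries and 17.3, 14.2 and 12.9 CPM in the knockout-labelled ones. Its groups overlapped entirely, with a log2 fold change of -0.06 (95% interval -0.35 to 0.23) that changed sign when a library was left out. Differences beyond that interval, in either direction, are thus outside what these libraries show for CXCL8. Its promoter window (chr4:73740419-73740518, forward strand) held an AP-1 match (TGACTCA on either strand, in capitals), found in 7 of the 28 genes (25%) and 6.05% of symbols, and no match to the NF-κB motif as searched.
CXCL8: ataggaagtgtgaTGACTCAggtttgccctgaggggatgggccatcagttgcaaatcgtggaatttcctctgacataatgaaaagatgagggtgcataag

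CXCL10 and CXCL11, neighbours on chromosome 4 that interferon induces, had the lowest estimates among genes above 1 CPM. CXCL10 (76021118 to 76023497) was measured at 2.83, 2.51 and 3.64 CPM in the control-labelled libraries, and at 2.04, 1.28 and 1.99 CPM in the knockout-labelled ones. All 3 knockout-labelled libraries lay lower. The log2 fold change was -0.75 (SE 0.232, 95% interval -1.25 to -0.24; edgeR unadjusted p = 0.00734 and adjusted p = 0.119), which did not pass the test. CXCL11 (76033682 to 76041415) was at 2.94, 4.67 and 3.68 CPM against 3.07, 2.36 and 1.47 CPM. Knockout replicate 1 lay above control replicate 1, so the groups overlapped. Its log2 fold change was -0.71 (SE 0.264; edgeR unadjusted p = 0.0192 and adjusted p = 0.191). Both promoters held NF-κB matches, and CXCL11 an AP-1 match beside one. The windows shown with these matches in capitals are 190 to 91 bases before the start for CXCL10 (chr4:76023588-76023687, reverse strand) and 150 to 51 bases before it for CXCL11 (chr4:76036121-76036220, reverse strand).
CXCL10: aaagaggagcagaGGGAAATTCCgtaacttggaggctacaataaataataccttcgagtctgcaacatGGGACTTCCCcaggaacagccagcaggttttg
CXCL11: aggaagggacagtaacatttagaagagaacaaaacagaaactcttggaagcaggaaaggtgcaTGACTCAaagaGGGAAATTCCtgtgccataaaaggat
Upstream of the window shown, CXCL10 also held the interferon-stimulated response element (GAAA, any 2 bases, GAAA, on either strand), which was found in 6 of the 28 genes (21.4%) and 4.38% of symbols. CXCL16, a membrane-bound chemokine and scavenger receptor, went the other way, at 10.2, 10.1 and 8.71 CPM against 10.1, 13.5 and 12.3 CPM. Knockout replicate 1 was level with the controls. The log2 fold change was 0.30 (SE 0.133; edgeR unadjusted p = 0.0436 and adjusted p = 0.279). CXCL16 shares exon positions with MED11 and ZMYND15 on the opposite strand, and whether the counting used strand is not given in the sources used here, so its value is uncertain.

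**Figure D3:**
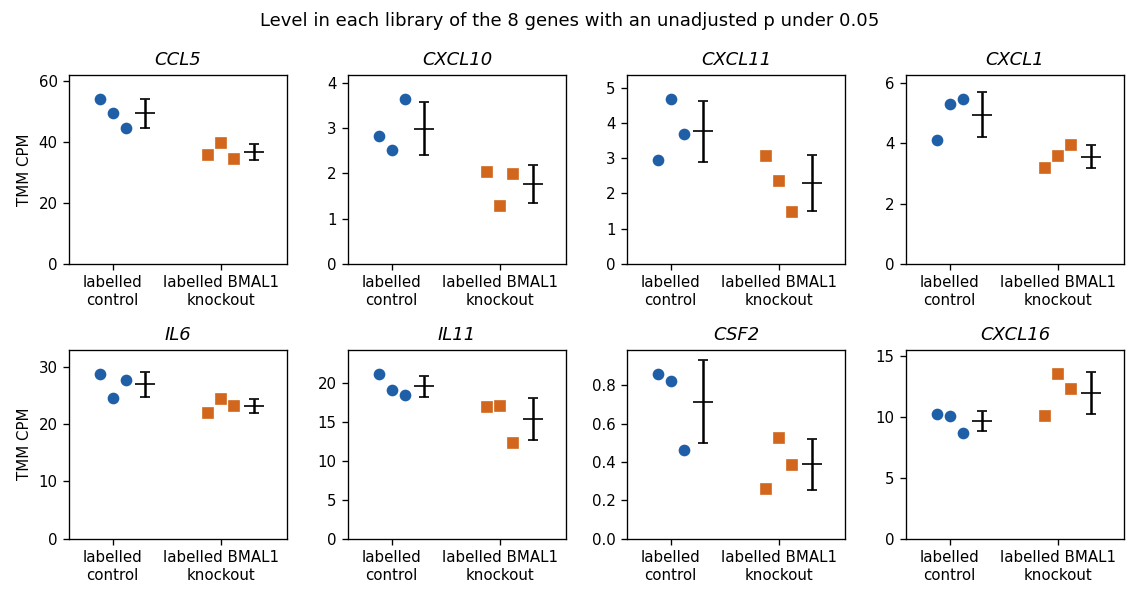
TMM CPM in each library (circles, labelled control; squares, labelled BMAL1 knockout) of the 8 genes with an unadjusted edgeR p under 0.05, with the mean and SD of each group (bars, n = 3). The groups are separate for CCL5, CXCL10, CXCL1, IL6 and IL11 and overlap for CXCL11, CSF2 and CXCL16.

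Summed over the 15 chemokine genes, the level was 98.0, 92.9 and 91.4 CPM in the control-labelled libraries, and 78.6, 82.2 and 75.5 CPM in the knockout-labelled ones. CCL5 made up 49.7% of this sum. The sum over all 39 genes, of which MIF made up 29.8%, was 652, 640 and 621 CPM against 592, 613 and 626 CPM and overlapped between groups. Without MIF this sum was 459, 442 and 450 CPM against 409, 430 and 439 CPM, with groups separate by a small margin. The lower total of chemokine transcripts was thus largely that of CCL5.

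Of the cytokines that signal through gp130, IL6, IL11, LIF and CLCF1 were expressed with estimates below 0, none past the test, while CNTF and CTF1, read from the list of other ligands, had estimates of 0.09 and 0.07. IL6 (chromosome 7, 22725884 to 22732002), the inflammatory member, was measured at 28.7, 24.5 and 27.7 CPM in the control-labelled libraries, and at 21.9, 24.3 and 23.2 CPM in the knockout-labelled ones. The groups did not overlap, but control replicate 2 and knockout replicate 2 were nearly equal. Its log2 fold change was -0.22 (SE 0.0945; edgeR unadjusted p = 0.0378 and adjusted p = 0.261). IL11 (chromosome 19, 55364382 to 55370463), known for its part in fibrosis, was at 21.1, 19.1 and 18.4 CPM against 16.9, 17.0 and 12.3 CPM. All 3 knockout-labelled libraries lay lower, knockout replicate 3 most of all. Its log2 fold change was -0.34 (SE 0.128; edgeR unadjusted p = 0.0202 and adjusted p = 0.195). IL6 shares exon positions with IL6-AS1 and STEAP1B on the opposite strand, so its value is uncertain. The promoter window of IL6 (chr7:22727050-22727149, forward strand) held an NF-κB match and that of IL11 (chr19:55370514-55370613, reverse strand) an AP-1 match, both in capitals.
IL6: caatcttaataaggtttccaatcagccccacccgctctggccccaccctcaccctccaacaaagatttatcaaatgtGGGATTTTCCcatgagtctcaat
IL11: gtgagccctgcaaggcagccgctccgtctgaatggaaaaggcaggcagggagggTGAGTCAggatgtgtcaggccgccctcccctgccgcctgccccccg
LIF, which keeps stem cells undifferentiated and overlaps antisense transcripts, was at 78.7, 76.5 and 68.5 CPM against 64.3, 70.3 and 72.4 CPM, with overlap. CLCF1 was at 28.7, 28.6 and 28.5 CPM in the control-labelled libraries and 23.7, 25.3 and 27 CPM in the knockout-labelled ones. The controls of CLCF1 were almost identical and lay above the other group, yet its log2 fold change of -0.18 did not pass the test (edgeR adjusted p = 0.331).

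None of the remaining interleukins passed the test, with estimates above 0 for IL18, IL15, IL32, IL12A and IL23A and below 0 for IL7 and TSLP, of which those of IL23A and IL7 changed sign when a library was left out. IL18, which is stored as a precursor and cut by caspase-1, was at 40.4, 45.8 and 52.8 CPM in the control-labelled libraries, and at 55.4, 50.7 and 54.9 CPM in the knockout-labelled ones. Control replicate 3 lay within the range of the other group. The log2 fold change of IL18 was 0.21 (edgeR adjusted p = 0.315). CASP1, the gene of caspase-1, was not kept by the filter, with 4 to 15 counts in each library. IL15, which sustains natural killer cells, was at 14.7, 13.4 and 17.2 CPM against 19.0, 15.2 and 20.7 CPM, with overlap and a log2 fold change of 0.28 (edgeR adjusted p = 0.304). IL32, a human cytokine gene absent from mice, was at 24.8, 21.7 and 21.1 CPM against 25.2, 27 and 25 CPM. Its groups did not overlap, by a small margin, and its log2 fold change of 0.19 did not pass the test (edgeR adjusted p = 0.342). IL12A, the p35 chain of IL-12, was at 0.969, 1.20 and 1.43 CPM against 1.62, 1.64 and 1.47 CPM. The groups were separate, with a log2 fold change of 0.39 (edgeR adjusted p = 0.442), while the 10 loci on each side of IL12A had a median of 0.26, so the genes around it stood higher too. IL23A, the p19 chain of IL-23, averaged 0.792 CPM with a log2 fold change of 0.11. IL7 and TSLP, growth factors of lymphocytes and activators of dendritic cells, averaged 0.838 and 0.403 CPM with log2 fold changes of -0.08 and -0.32, and their intervals reached far on both sides of 0. IL12A, IL7 and TSLP share exon positions with antisense transcripts, and IL32 with a small RNA pseudogene.

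Of the colony-stimulating factors, CSF1, the growth factor of macrophages, was well expressed, at 42.4, 39.9 and 38.8 CPM in the control-labelled libraries, and at 32.0, 37.7 and 36.2 CPM in the knockout-labelled ones. The groups did not overlap, but the log2 fold change of -0.19 did not pass the test (edgeR adjusted p = 0.304). CSF2, which encodes GM-CSF (chromosome 5, 132073789 to 132076170), was at 0.857, 0.823 and 0.464 CPM against 0.258, 0.524 and 0.384 CPM. Control replicate 3 lay among the other group. Its log2 fold change of -0.90, the lowest of the 26, had an SE of 0.394 and a 95% interval from -1.76 to -0.04 (edgeR unadjusted p = 0.0415 and adjusted p = 0.272).

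TNFSF9 and MIF, the most abundant genes per length, did not differ beyond their spread. TNFSF9 was at 76.0, 74.5 and 80.8 CPM in the control-labelled libraries and 67.5, 75.2 and 86.8 CPM in the knockout-labelled ones, and the second group spanned the whole range of the first. MIF was at 193, 199 and 170 CPM against 182, 183 and 187 CPM, again within the range of the controls. The 95% intervals of their log2 fold changes ran from -0.22 to 0.20 for TNFSF9 and from -0.20 to 0.15 for MIF. Changes larger than these are not seen in these abundant transcripts. TNF itself averaged 0.282 CPM, with 0 counts in knockout replicate 1, and its log2 fold change of -0.44 (SE 0.784) carried no sign, since it turned positive when that library was left out.

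**Figure D4:**
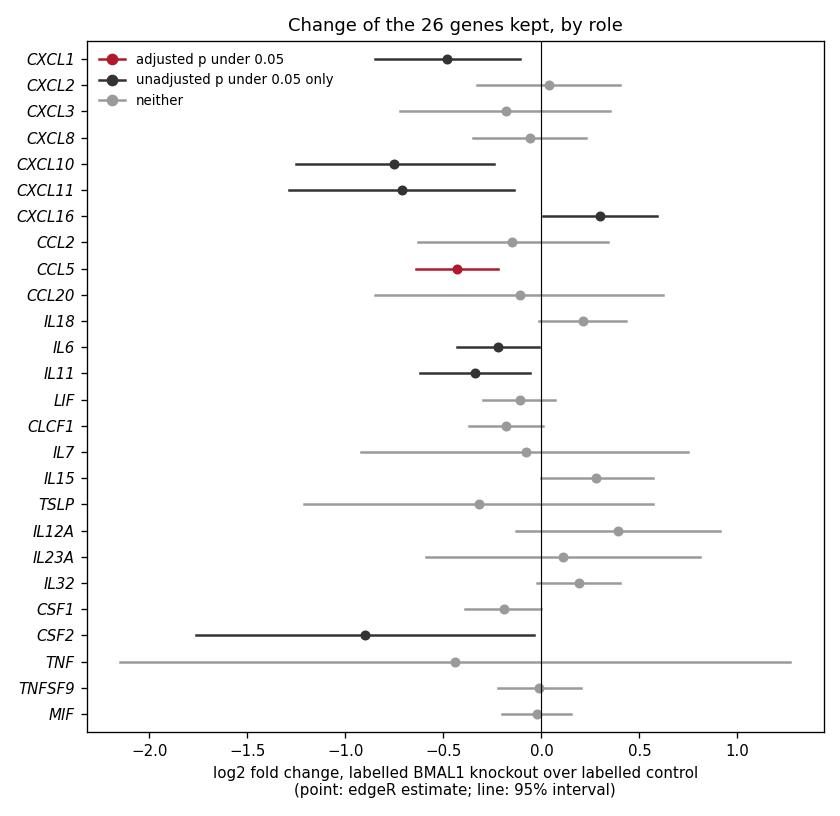
log2 fold change, labelled BMAL1 knockout over labelled control, of the 26 genes kept, ordered by role (points, edgeR estimate; lines, 95% interval; red, adjusted p under 0.05; black, unadjusted p under 0.05 only; grey, neither). CCL5 at -0.43 is the only red point.

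Receptors for these ligands were read from a list of 51, of which 29 passed the filter. At an adjusted p under 0.05, 1 was higher and 2 were lower, together 10.3% of the 29, beside 2.51% of all loci. IL7R, the receptor chain for IL7 and TSLP (chromosome 5, 35852695 to 35879603), was measured at 83.7, 88.2 and 104 CPM in the control-labelled libraries, and at 58.5, 52.6 and 56.1 CPM in the knockout-labelled ones. Every knockout-labelled library was well below every control. The log2 fold change was -0.72 (SE 0.0939; edgeR adjusted p = 0.00250), and IL7R kept an adjusted p under 0.05 in all 14 alternatives. CD44, which binds hyaluronan and with CD74 receives MIF, was at 350, 350 and 382 CPM against 278, 248 and 268 CPM. The groups were far apart, with a log2 fold change of -0.45 (SE 0.0767; edgeR adjusted p = 0.0117), although the call held in only 3 of 6 fits without a library, where it ranged from 0.00218 to 0.0657. CD74 averaged 37.9 CPM with a log2 fold change of 0.11. ACKR3, a scavenging receptor that removes CXCL11 and CXCL12 without G protein signalling, was at 3.62, 3.07 and 3.54 CPM against 5.67, 5.31 and 5.08 CPM. All 3 knockout-labelled libraries lay higher. The log2 fold change was 0.65 (SE 0.150; edgeR adjusted p = 0.0437), and the call was lost in each of the 6 fits without a library, where the adjusted p ranged from 0.0671 to 0.174.

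For the gp130 cytokines, the receptor chains were present. IL6ST, which encodes gp130, was at 360, 360 and 438 CPM in the control-labelled libraries and 398, 341 and 360 CPM in the knockout-labelled ones, with overlap. OSMR, the oncostatin M receptor, was at 140, 141 and 154 CPM against 111, 117 and 124 CPM. The groups were separate, but its log2 fold change of -0.31 missed the threshold (edgeR adjusted p = 0.0577). LIFR and IL6R averaged 59.0 and 6.22 CPM. Receptor genes of several chemokines were silent by contrast, as seen in genes picked out after their values were known. CXCR1, CXCR3 and CCR2 had 0 counts in all 6 libraries, and CXCR2 at most 4 and CCR6 at most 2 in any library. Others were kept at a low level. CXCR4, the receptor of CXCL12, was at 0.224, 0.299 and 0.143 CPM against 0.656, 0.360 and 0.384 CPM. The groups were separate, on few reads, with a log2 fold change of 1.08 that did not pass the test (edgeR unadjusted p = 0.0379 and adjusted p = 0.261). CXCR6 and CCR10, which bind CXCL16 and CCL28, averaged 0.587 and 0.682 CPM and overlapped between groups. IL2RG, the common gamma chain that completes the receptors of IL7 and IL15, had 0 counts in all 6, so IL7R was expressed without it. CRLF2, the other receptor chain of TSLP, had 2 counts in control replicate 2 and 0 in every other library. CSF1R, the receptor of CSF1, had 0 counts in the control-labelled libraries and 4, 5 and 9 counts in the knockout-labelled ones, too few to compare.

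**Figure D5:**
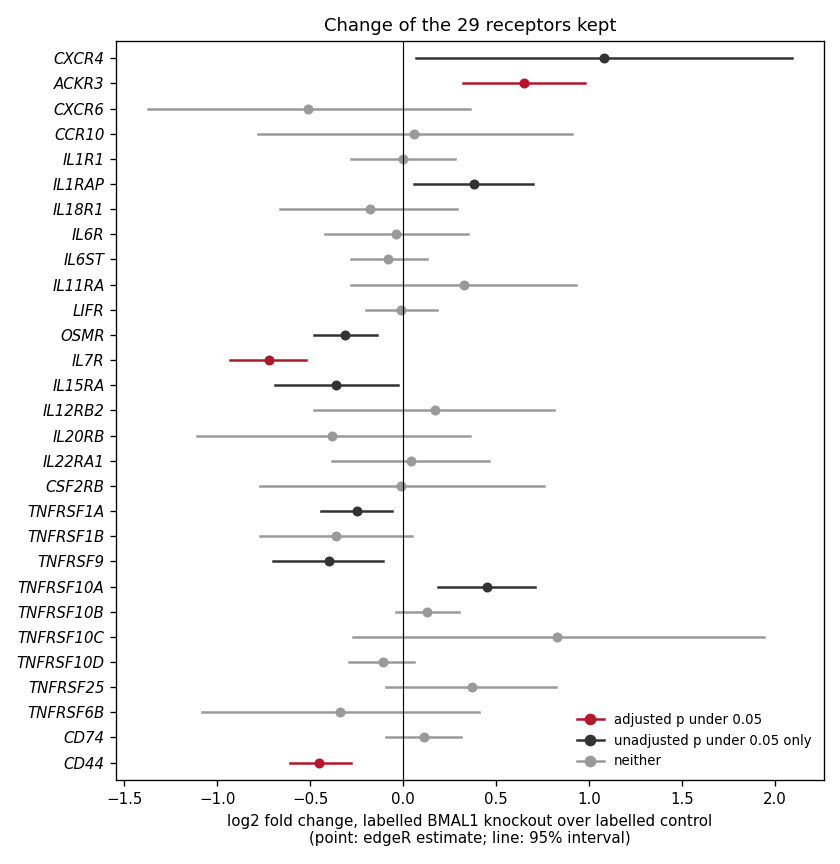
log2 fold change, labelled BMAL1 knockout over labelled control, of the 29 receptor genes kept (points, edgeR estimate; lines, 95% interval; colours as in the plot of cytokine genes). ACKR3 at 0.65, IL7R at -0.72 and CD44 at -0.45 are the red points.

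Of 12 genes that process or shed these cytokines, 10 were kept and 0 were called by edgeR, DESeq2 or limma-voom, with 1 higher and 1 lower at an unadjusted p under 0.05, close to the 16.9% of all loci. The highest in CPM, not divided by exon length, were ADAM10 at 179, 178 and 207 against 191, 190 and 189 CPM, then ADAM17, which releases TNF from the membrane, at 73.7, 70.0 and 76.3 against 79.8, 81.8 and 84.5 CPM, and FURIN at 63.7, 61.1 and 55.6 against 46.1, 56.4 and 58.4 CPM. ADAM17 lay higher in all 3 knockout-labelled libraries without passing the test (log2 fold change 0.16, edgeR adjusted p = 0.298), and the 10 loci on each side of it had the same median, 0.16. Cytokine mRNAs are short-lived, and all 10 listed factors that bind their AU-rich elements or other decay signals were kept. KHSRP, HNRNPD and RC3H2 were the most abundant if CPM is averaged over all libraries, at 410, 286 and 168 CPM, and 0 of these 3 passed the test. Of the 10 factors, edgeR called 1 (10%), beside 2.51% of all loci. ZFP36L1, which speeds decay of mRNAs with AU-rich elements, was at 121, 122 and 121 CPM in the control-labelled libraries and 90, 94.2 and 105 CPM in the knockout-labelled ones. The groups were separate, with a log2 fold change of -0.33 (SE 0.0787; edgeR adjusted p = 0.0483), and the call held in 2 of 6 fits without a library, where the adjusted p ranged from 0.0364 to 0.198.

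Other ligands of the same families were mostly low or silent. Of 63, 51 did not pass the filter, 26 of them with 0 counts in all 6 libraries, and 12 were kept. Of these 12, edgeR called 1 (8.33%), beside 2.51% of all loci. CD70, the ligand of CD27, was by far the most abundant, at 83.3, 93.6 and 89.1 CPM in the control-labelled libraries and 77.7, 91.9 and 97.8 CPM in the knockout-labelled ones, with full overlap. CNTF and CTF1, also gp130 cytokines, averaged 4.15 and 3.63 CPM, with log2 fold changes of 0.09 and 0.07, and overlapped between groups. CCL3, another attractant of monocytes and T cells, was at 1.08, 0.711 and 0.607 CPM against 0.281, 0.262 and 0.158 CPM. All 3 knockout-labelled libraries lay lower, with a log2 fold change of -1.77 (SE 0.403; edgeR adjusted p = 0.0421). This call rests on few reads, was lost in each of the 6 fits without a library, where the adjusted p ranged from 0.0528 to 0.172, and concerns a gene with near-identical copies and an antisense partner, so its value is uncertain.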

How the data were processed

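RNA-seq of 3 libraries labelled control and 3 labelled BMAL1 knockout was analysed. The authors mapped reads free of adapters and low-quality bases to hg38, kept unique mappings and deposited raw counts of reads for each gene. The submitters' processing notes name fastp 0.20.1 and HISAT2 2.0.4. The annotation, the use of strand and whether a read pair counts once are not given in the sources used here. Loci with 2 counts outnumbered loci with 1 count by 2.38 to 2.99 times in each library, so counting intervals may be too narrow.

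TMM-scaled CPM were computed with edgeR 4.0.16 under R 4.3.3, as were log2 fold changes and two-sided p-values (quasi-likelihood, robust, filterByExpr, no block), with Benjamini-Hochberg adjustment across the 14860 loci that passed. The threshold was 0.05 on the adjusted p. The biological coefficient of variation was 0.108. Whether replicates were separate cultures is not stated, and p-values measure only the spread between these libraries. Within groups, replicates differed by 5.41 to 45.0 times the variance of counting alone. Coordinates and exon lengths came from GENCODE v44. Single genes were also compared by exact permutation (scipy 1.17.1). The fit was tested on simulated data.

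The genes, and the lists of receptors, processing enzymes, mRNA decay factors, other ligands and thyroid, epithelial, immune, endothelial and fibroblast markers, were chosen with earlier results of these data known. Values in every library are given for the genes kept with a mean of at least 1 CPM or an unadjusted p under 0.05, for list genes with an adjusted p under 0.05, and for BMAL1. Other kept genes have a level and a fold change, genes not kept have counts, and the 3 most abundant genes of each list of the pathway are named. Some genes of the lists are not reported here. The alternatives scaled by median of ratios or by library size only, dropped the filter or required 10 counts in every library, added a replicate block, or used DESeq2 1.42.0, limma-voom (limma 3.58.1), thinning to the smallest total, an adjusted p under 0.1 and leaving out each library.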

Additional observations from a re-analysis of the deposited data

How the results depend on the processing

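All loci called higher (161) were 256 with DESeq2, 102 with limma-voom, 362 at an adjusted p under 0.1 and 46 to 293 with a library left out. Those called lower (212) were 379 with DESeq2, 389 at an adjusted p under 0.1 and 67 to 340 with a library left out. The count of cytokine genes called lower was 0 on library size alone and with limma-voom, and 0 to 1 with a library left out. ACKR3, the receptor called higher, lost its call with limma-voom, after thinning and with every library left out. Receptors called were 0 to 1 higher and 1 to 3 lower with a library left out, the 1 higher being a receptor other than ACKR3. The call of ZFP36L1 gave 0 on library size alone and with limma-voom, and 0 to 1 with a library left out. That of CCL3 gave 0 without the filter, with limma-voom, after thinning and with every library left out, and also 0 with 10 counts required or with DESeq2, where CCL3 had no adjusted p. The median of the 26 genes lay between -0.21 and -0.07, and the log2 fold change of BMAL1 between 0.50 and 0.70. The causes were not tested.

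Replicate numbers did not pair the samples (correlations of deviations -0.0896, -0.0517 and -0.00471). With the replicate block, 132 loci were higher and 145 lower, and cytokine genes, receptors higher, mRNA decay factors and other ligands called were each 0.

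Signs reversed in 8 of the 31 genes run under the alternatives. On library size alone TNFSF9 was 0.02 and MIF 0.00. With a library left out, log2 fold changes ranged from -0.07 to 0.16 for CXCL2, -0.19 to 0.05 for CXCL8, -0.32 to 0.17 for CCL20, -0.48 to 0.17 for IL7, -0.09 to 0.32 for IL23A, -0.86 to 0.18 for TNF, -0.11 to 0.07 for TNFSF9 and -0.09 to 0.02 for MIF. Of 427 values of 31 genes under the alternatives, 374 kept direction and side of the threshold, 37 lost the call and 16 reversed. The 6 kept genes under 1 CPM and the 13 not kept had few or no reads, and whether more depth would change their values was not tested.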

Other observations

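Of the marker lists of other cell types, edgeR called 0 of 3 endothelial and 0 of 3 fibroblast genes kept, and 0 at an unadjusted p under 0.05. COL1A1 had 21564 to 42780 counts in each library, while COL1A2, DCN and LUM had at most 2 counts. The summed endothelial markers were at 2.76, 2.13 and 2.54 CPM in the control-labelled libraries and 1.43, 1.64 and 2.08 CPM in the knockout-labelled ones.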
